A study of Mus musculus with 14 samples.

Results

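The Bcl2 family genes described here are 10 listed regulators of apoptosis, all of which were matched by symbol among the 33939 genes measured. They are the anti-apoptotic genes Bcl2, Bcl2l1, Bcl2a1b and Mcl1, the effectors Bax and Bak1, and the BH3-only genes Bid, Bcl2l11, Bbc3 and Pmaip1. CD11b+ cells, labelled microglia/myeloid cells, were sorted with magnetic beads from the contralateral (CL) and ipsilateral (IL) hemispheres of male C57BL/6 mice, 8 to 12 weeks old, at 3 days after traumatic brain injury (TBI) by controlled cortical impact. Both groups of mice had received tamoxifen and carried Cx3cr1-CreER+/-, which is active in microglia and in other Cx3cr1-expressing myeloid cells. The paper describes a waiting period between tamoxifen and injury, meant to let peripheral Cx3cr1+ monocytes be replaced. Control mice (Ctrl) carried no further allele, and conditional knockout mice (cKO) were also homozygous for a floxed gene. The 14 libraries came from 8 mice and form Ctrl CL and Ctrl IL (n = 4 each) and cKO CL and cKO IL (n = 3 each), and 6 mice gave both hemispheres. Libraries of uninjured mice were not analysed here, so CL and IL are both hemispheres of injured animals.

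Mitochondrial apoptosis is set by the balance of this family. The anti-apoptotic proteins hold the effectors Bax and Bak1 in check, and the BH3-only proteins sense stress and death signals and either neutralise the anti-apoptotic proteins or activate the effectors. Once active, the effectors open the outer mitochondrial membrane, cytochrome c leaves the mitochondrion, and the apoptosome forms on Apaf1 and activates caspases. In myeloid cells Mcl1 and the Bcl2a1 genes are known as short-lived or inducible survival factors.

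The BH3 motif is the surface by which family members bind each other, and its core codons are shown here because they mark what an otherwise diverse family shares. A script searched the coding sequences (GENCODE M21, GRCm38) for a leucine codon followed by 3 codons, a glycine codon and an aspartate codon. The core was found in 8 of the 10 genes, among them Pmaip1, whose sequence is not printed and which held 2 matches. Bbc3 matched with an alanine codon in place of glycine, and Bcl2a1b held no match. Each line gives 30 coding bases, 5′ to 3′, with the leucine codon and the glycine (or alanine) and aspartate codons in capitals. The leucine is codon 94 in Bcl2, codon 90 in Bcl2l1, codon 194 in Mcl1, codon 63 in Bax, codon 76 in Bak1, codon 90 in Bid, codon 150 in Bcl2l11 and codon 141 in Bbc3.
Bcl2: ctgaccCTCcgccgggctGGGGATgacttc
Bcl2l1: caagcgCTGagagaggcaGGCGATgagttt
Mcl1: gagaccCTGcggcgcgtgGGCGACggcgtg
Bax: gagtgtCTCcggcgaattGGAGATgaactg
Bak1: cggcagCTTgctctcatcGGAGATgatatt
Bid: agacatCTCgcccaaataGGCGATgagatg
Bcl2l11: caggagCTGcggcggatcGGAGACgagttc
Bbc3: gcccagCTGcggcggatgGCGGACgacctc

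Levels are given in CPM, reads per 1000000 reads assigned to genes in a library, as deposited. The libraries held between 12.2 and 41.6 M reads (M, 1000000), with a median of 34.2 M. Differences were tested with limma on log2(CPM + 1) after scaling between libraries, and a gene was called when its Benjamini-Hochberg adjusted p over all genes tested was at or under 0.05 and its fold change at least 1.2. All 10 genes passed the filter on low values in every comparison. The 9 microglial markers, P2ry12, Tmem119 and Sall1 among them, were detected in every library and summed to 33151 to 37782 CPM in the CL and 19057 to 23484 CPM in the IL libraries, without overlap. The 9 neutrophil markers summed to 579 to 7768 CPM in Ctrl CL against 181 to 1026 CPM in Ctrl IL, and to 621 to 1706 CPM in cKO CL against 258 to 426 CPM in cKO IL, and were lower in IL in 6 of 6 mice. The 5 B cell markers summed to 550 to 833 CPM in CL and 320 to 489 CPM in IL, without overlap. The response to dissociation was read from 7 genes, Fos, Jun, Egr1, Ier2, Hspa1a, Hspa1b and Dusp1. They summed to 20952 to 31942 CPM in CL and 13731 to 16361 CPM in IL. All 4 sums therefore moved with the hemisphere comparisons. The 6 monocyte markers overlapped as a sum, at 228 to 748 CPM in Ctrl CL and 369 to 594 CPM in Ctrl IL. Of these, Ccr2 was higher in Ctrl IL (59.1 to 91.7 CPM) than in Ctrl CL (30.8 to 40.9 CPM). Vcan was too, at 3.10 to 6.80 CPM against 1.12 to 1.76 CPM. Ly6c2, Plac8, Chil3 and F13a1 overlapped between the Ctrl hemispheres. Smaller sums moved too, with 4 astrocyte markers at 24.9 to 33.1 CPM in Ctrl CL against 37.3 to 63.2 CPM in Ctrl IL. Among these markers Gfap alone was higher without overlap, at 4.74 to 12.9 CPM in Ctrl CL against 24.6 to 42.1 CPM in Ctrl IL. Aldoc, Slc1a2 and Aqp4 overlapped between the Ctrl hemispheres, and Aldoc and Slc1a2 were lower in IL in most Ctrl mice. Between genotypes, 4 oligodendrocyte markers did not overlap in CL, at 98.1 to 152 CPM in Ctrl and 51.4 to 72.3 CPM in cKO. The dissociation genes differed between genotypes in both directions. Hspa1a was 1022 to 2960 CPM in Ctrl CL against 316 to 690 CPM in cKO CL. In IL it was 407 to 897 CPM against 183 to 245 CPM, and Hspa1b had the same pattern. Ier2 was higher in the cKO, at 1090 to 1651 CPM in Ctrl CL against 2016 to 2510 CPM in cKO CL. Ier2 in IL, and Egr1 in both hemispheres, were also higher without overlap, and Fos, Jun and Dusp1 overlapped. The part of these cells and genes in the results was not tested. The difference between genes longer than 5000 and shorter than 1500 exon bases, as medians of log2 deviations, was 1.02 in the IL library of Ctrl mouse 3546, which was also the smallest library, and -0.53 to 0.53 in the other 13. In bulk RNA, fewer cells of a type and less RNA per cell cannot be told apart.

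Per kilobase of exon, the level followed no single class. Bcl2a1b had the highest median over the 14 libraries (322 CPM per kb, range 144 to 418), followed by Mcl1 (257, range 209 to 303), and the ranges of these survival genes overlapped. Bax (40.5, range 24.4 to 71.2), Bcl2l1 (31.1, range 23.7 to 40.4) and Bid (21.9, range 14.8 to 34.1) formed the next tier, each overlapping its neighbour, and no library of Bax reached the lowest level of Mcl1. Pmaip1 (9.80, range 5.08 to 14.3), Bcl2l11 (5.75, range 3.54 to 7.85) and Bbc3 (4.13, range 2.73 to 7.56) overlapped in the same way. Bcl2 itself was low (1.99, range 0.706 to 2.92), overlapping Bbc3, and Bak1 (0.411, range 0.143 to 0.612) lay below Bcl2 in every library. Gaps without overlap thus separated Mcl1 from Bax, Bid from Pmaip1, and Bcl2 from Bak1.

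**Figure D1:**
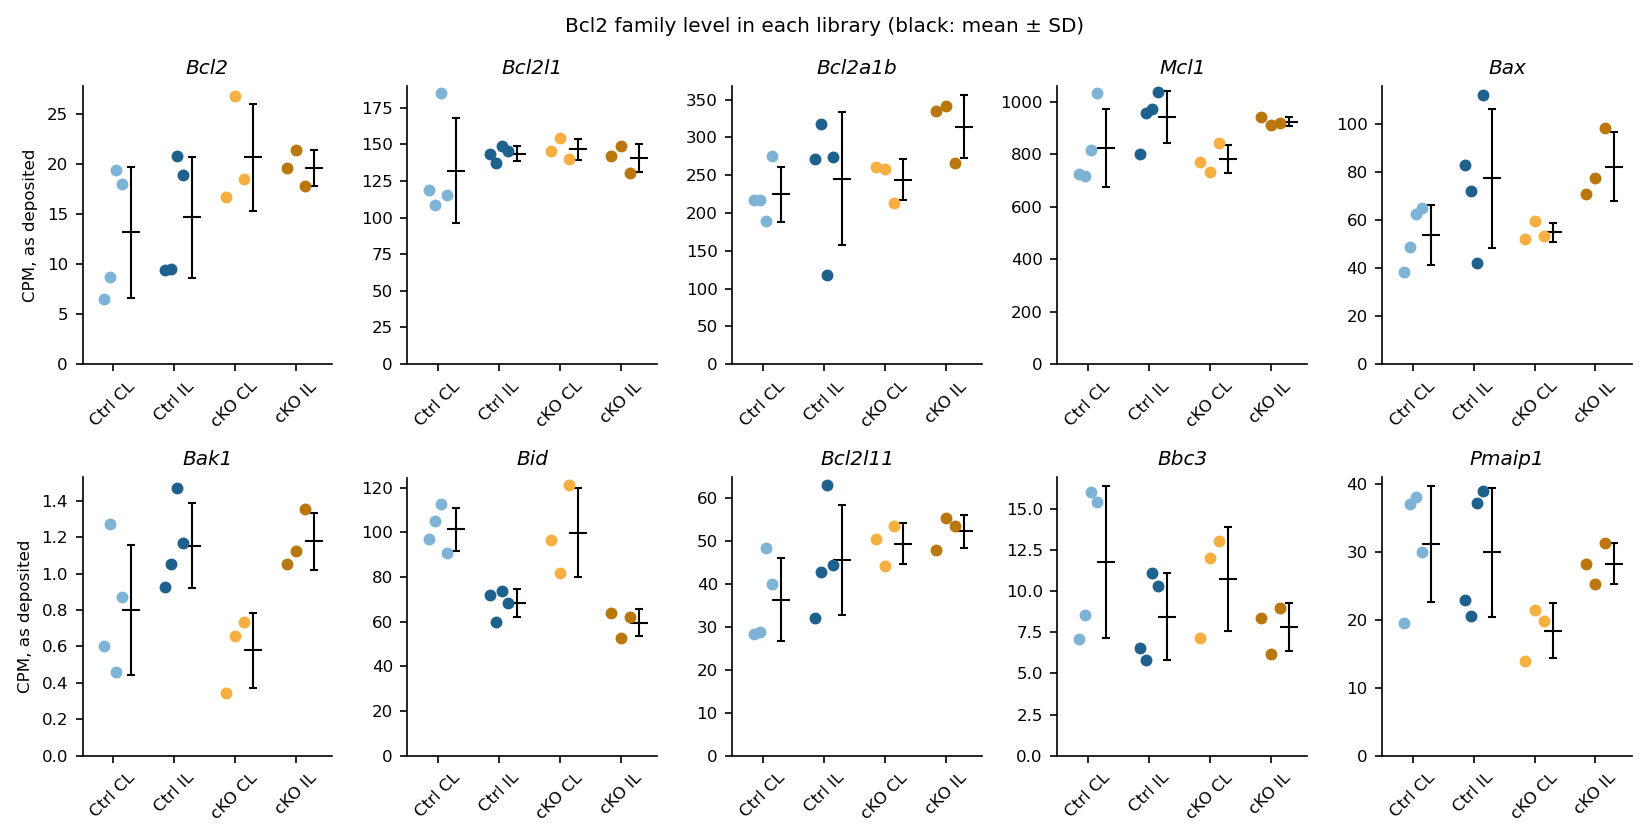
Level of each of the 10 genes in each library, in CPM as deposited on linear axes from 0, for the 4 groups; points are libraries and black marks are the mean ± SD. Bid lay lower in every IL than in every CL library of its genotype. In the cKO, Bcl2a1b, Mcl1, Bax, Bak1 and Pmaip1 lay higher in every IL library, where 42.4% of all genes did not overlap.

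The comparison of cKO with Ctrl asked whether the deletion changed the family in the IL or the CL hemisphere. None of the 10 genes was called by limma in either hemisphere. In IL, 0.676% of the 16873 genes tested were called and 10.3% did not overlap between genotypes, against none of the 10 family genes by either measure. In CL, 0.869% of 16570 genes were called and 10% did not overlap, again against none of the 10. At an unadjusted p under 0.05 there were 0 family genes in IL and 3 in CL, which were Bcl2, Bcl2l11 and Pmaip1, beside 1507 of 16873 and 1655 of 16570 of all genes. The median log2 fold change of the 10 genes was 0.01 in IL and -0.01 in CL, beside 0.01 and -0.07 for all genes tested. These intervals do not show that the genotypes had equal levels.

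Bcl2, the founding survival gene (chr1:106538178-106714274, GRCm38), had the largest positive genotype difference among the anti-apoptotic members. In Ctrl mice 3541, 3545, 3546 and 3551 it stood at 6.47, 8.72, 19.4 and 17.97 CPM in CL and at 9.41, 9.51, 20.8 and 18.8 CPM in IL. The same Ctrl mice were low, 3541 and 3545, and high, 3546 and 3551, in both hemispheres. The cKO libraries of mice 788, 791 and 3592 held 16.7, 26.7 and 18.5 CPM in CL, and those of mice 784, 791 and 3592 held 19.6, 21.4 and 17.8 CPM in IL. The cKO values lay above both low Ctrl mice and around the high ones, the lowest being just below them, and the genotypes overlapped in both hemispheres. The log2 fold change was 0.69 (SE 0.31, 95% interval 0.01 to 1.37, adjusted p = 0.49) in CL and 0.49 (SE 0.24, interval -0.06 to 1.04, adjusted p = 0.622) in IL. Between hemispheres it was 0.26 in Ctrl and 0.02 in cKO, with adjusted p of 0.718 and 0.953. The Ctrl value ranged from 0.03, without the CL library of mouse 3541, to 0.44, without that of mouse 3546. Bcl2 has 9157 exon bases. The long less short difference was -0.28 and -0.19 in CL and -0.47 and -0.53 in IL for mice 3541 and 3545. For mice 3546 and 3551 it was 0.53 and 0.03 in CL and 1.02 and -0.22 in IL. In the cKO it was 0.21 to 0.25 in CL and -0.23 to -0.17 in IL. Its part in the level of Bcl2 was not tested.

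Bcl2l1, which encodes the survival protein Bcl-xL, was not called in any comparison or alternative. It had 132 ± 35.8 CPM (SD, n = 4) in Ctrl CL, 144 ± 4.94 in Ctrl IL, 147 ± 7.22 (n = 3) in cKO CL and 141 ± 9.41 in cKO IL. The wide spread in Ctrl CL came from mouse 3546, whose 185 CPM stood above 109 to 119 CPM in the other 3. Its 4 fold changes ranged on the log2 scale from -0.02 in the IL genotype comparison to 0.23 between hemispheres in Ctrl, with adjusted p from 0.502 to 0.986.

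Mcl1 (chr3:95658788-95663176), a short-lived survival protein, was among the highest of the 10. Its level was 723, 715, 818 and 1036 CPM in Ctrl CL and 803, 958, 973 and 1037 CPM in Ctrl IL. In the cKO it was 772, 734 and 841 CPM in CL and 943, 913 and 918 CPM in IL. Each of the 6 mice with both hemispheres had more Mcl1 in IL, by 0.17 to 0.53 on the log2 scale, and the cKO hemispheres did not overlap. The log2 fold change between hemispheres was 0.29 (SE 0.14, adjusted p = 0.288) in Ctrl and 0.31 (SE 0.12, adjusted p = 0.09) in cKO, so neither was called. With the mouse as a random effect over all 14 libraries Mcl1 was called in both, at adjusted p of 0.026 and 0.0483, and with the mouse as a block in neither, at 0.0813 and 0.294. Between genotypes its log2 fold change was -0.01 in IL and -0.08 in CL, with intervals of -0.31 to 0.28 and -0.45 to 0.28.

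Bcl2a1b (chr9:89199209-89207827) belongs to a cluster of near-identical survival genes on chromosome 9. It held 217, 218, 190 and 276 CPM in Ctrl CL and 272, 318, 118 and 274 CPM in Ctrl IL. The cKO had 261, 259 and 213 CPM in CL and 335, 342 and 266 CPM in IL. Mouse 3546 gave the lowest of all 14 values with its IL library, the one that stood apart by gene length, and the exons of Bcl2a1b span only 817 bases. The cKO hemispheres did not overlap, with a log2 fold change of 0.43 (SE 0.16, adjusted p = 0.0849). The genotype difference in IL was 0.45 (SE 0.39, adjusted p = 0.862), and 0.07 when that library was left out.

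How reads were shared among the copies decides each copy's value, so the coding starts are shown. The coding sequences of Bcl2a1a, Bcl2a1b and Bcl2a1d are each 519 bases long, and their transcripts matched over 817 to 819 bases at 98.16% to 99.14% identity. Relative to Bcl2a1b, and counted from 1 at the A of the start codon, Bcl2a1a had 11 substitutions, of which A11C, C12T, T16C, T22C, T48C and A94C lie in the stretch shown. Bcl2a1d had 6, with G4T, T48C and A94C in the stretch. The lines give coding bases 1 to 150 from GENCODE M21, 5′ to 3′, with every position that differs among the 3 copies in capitals.
Bcl2a1b: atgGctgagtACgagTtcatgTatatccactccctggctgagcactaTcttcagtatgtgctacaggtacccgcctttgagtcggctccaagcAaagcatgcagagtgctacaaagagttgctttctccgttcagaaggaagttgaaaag
Bcl2a1a: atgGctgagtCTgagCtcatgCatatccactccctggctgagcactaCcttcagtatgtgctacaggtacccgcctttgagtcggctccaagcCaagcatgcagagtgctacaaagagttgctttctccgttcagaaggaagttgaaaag
Bcl2a1d: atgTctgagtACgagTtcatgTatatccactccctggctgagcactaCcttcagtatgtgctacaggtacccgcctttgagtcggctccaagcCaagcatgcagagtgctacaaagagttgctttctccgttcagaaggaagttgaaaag

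Summed over the copies, the level was 290 ± 47.9 CPM (SD, n = 4) in Ctrl CL, 325 ± 122 in Ctrl IL, 343 ± 36.2 (n = 3) in cKO CL and 429 ± 65.8 in cKO IL. Bcl2a1b made up 70.9% to 78.6% of the sum, and Bcl2a1c did not exceed 0.329 CPM. In two-sided exact permutation tests of the scaled sums, the difference between genotypes was 103 CPM in IL (p = 0.4) and 49.2 CPM in CL (p = 0.229), where 4 against 3 libraries can reach 0.0571. The IL less CL difference was 66.4 CPM in Ctrl (exact permutation p = 0.429, smallest possible 0.0286) and 120 CPM in cKO (p = 0.3, smallest possible 0.1). Of these tests, which leave the mouse pairing out, only that of the Ctrl hemispheres could have passed 0.05, so the others give no call in either direction. The share of Bcl2a1a did not overlap between genotypes in either hemisphere, at 12.6% to 13.9% in Ctrl CL against 15.2% to 16.5% in cKO CL, and 10.3% to 12.3% in Ctrl IL against 14.4% to 17.5% in cKO IL. Its own log2 fold change was 0.47 (SE 0.17, adjusted p = 0.354) in CL and 0.98 (SE 0.43, adjusted p = 0.57) in IL, and neither was called. Bcl2a1d had log2 fold changes of 0.69 (adjusted p = 0.287) in CL, where its groups did not overlap, and 0.24 (adjusted p = 0.958) in IL. The shares come from the same libraries as these fold changes and are given without a test.

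**Figure D2:**
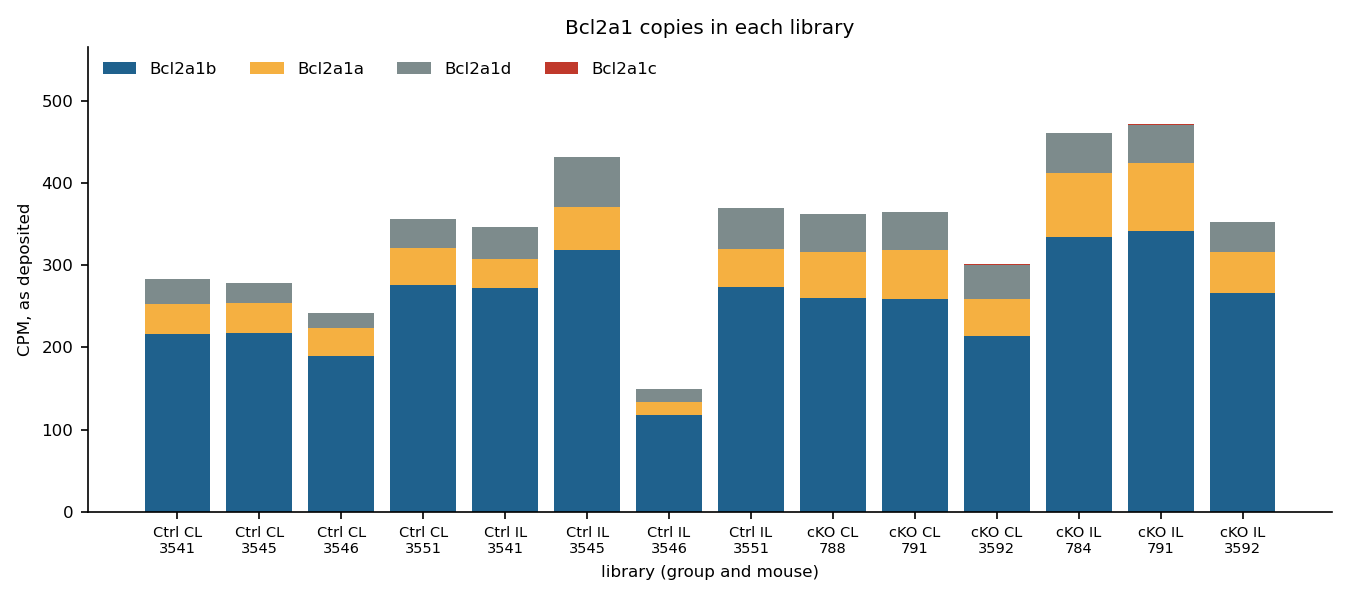
Stacked bars of the CPM as deposited of Bcl2a1b, Bcl2a1a, Bcl2a1d and Bcl2a1c in each of the 14 libraries, on an axis from 0. The IL library of Ctrl mouse 3546 is the lowest, at 150 CPM for the sum, and the IL libraries of cKO mice 784 and 791 are the highest, at 461 and 472 CPM.

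The comparison of IL with CL asked how the family differed between the injured and the opposite hemisphere in each genotype. In the cKO, 4 of the 10 genes were called, with Bax, Bak1 and Pmaip1 higher and Bid lower in IL, where 22.7% of all 16758 genes tested were called. In Ctrl none of the 10 was called in a comparison that called 6.69% of 16376 genes, and only Bid had an unadjusted p under 0.05. Groups did not overlap for 6 genes in the cKO (Bcl2a1b, Mcl1, Bax, Bak1, Bid and Pmaip1), where 42.4% of all genes did not, and for Bid alone in Ctrl, where 17.7% did not. The median log2 fold change of the 10 genes was 0.25 in Ctrl and 0.23 in cKO, beside -0.03 and 0.01 for all genes tested. Since hemispheres of the same animals were compared, the mouse was also fitted as a block, using the 2 cKO and 4 Ctrl mice with both hemispheres for the difference. With only 2 such mice, block results in the cKO depend largely on the variance that limma borrows across genes. In the cKO, Bax and Bid were then the 2 genes called, where 14.2% of genes were called. In Ctrl the block called Bid and Bcl2l11, where 20.2% of genes were called. The same cKO IL and CL libraries enter the genotype comparisons above, so the comparisons are not independent of each other.

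**Figure D3:**
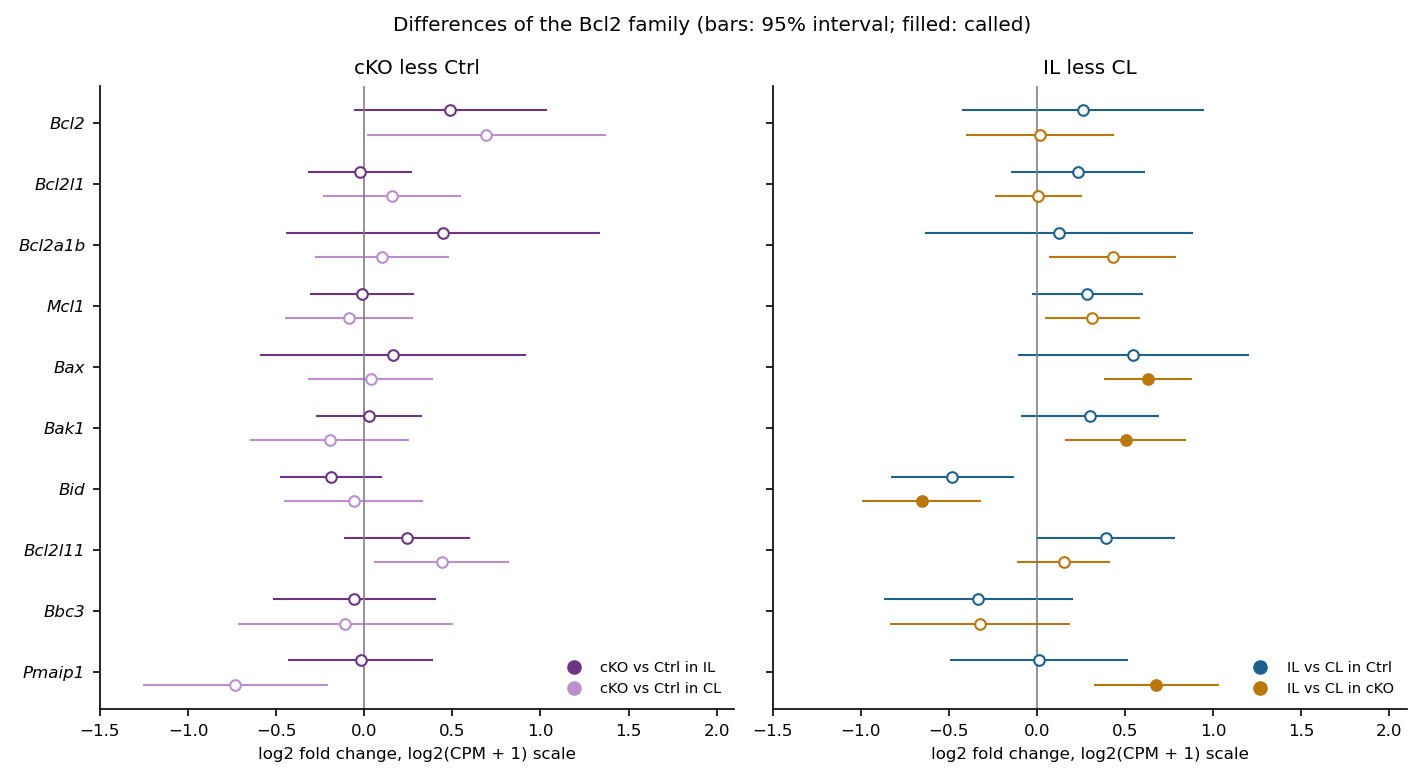
Log2 fold changes of the 10 genes on the log2(CPM + 1) scale, cKO less Ctrl on the left and IL less CL on the right; bars are 95% intervals and filled points were called. No point is filled on the left, and on the right Bax (0.63), Bak1 (0.50), Bid (-0.65) and Pmaip1 (0.68) are filled, all in the cKO.

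Bax (chr7:45461697-45466898, minus strand) encodes the soluble effector that forms pores in the outer mitochondrial membrane. In Ctrl it was 38.4, 48.9, 62.4 and 65.2 CPM in CL and 83.1, 72.2, 42.3 and 112 CPM in IL. The hemispheres overlapped through mouse 3546 alone, whose IL library was the lowest of its group, while the other 3 mice had more in IL by 0.63 to 1.19 on the log2 scale. In the cKO it was 52.2, 59.6 and 53.4 CPM in CL and 71.0, 77.4 and 98.5 CPM in IL, without overlap. The log2 fold change was 0.63 (SE 0.11, adjusted p = 0.007) in cKO and 0.55 (SE 0.29, adjusted p = 0.33) in Ctrl. Leaving out any single cKO library kept the call in 6 of 6 fits, and leaving out the IL library from mouse 3546 made Bax a call in Ctrl as well, at 0.87 (adjusted p = 0.0125). The long less short difference moved with the cKO hemispheres too, at 0.21 to 0.25 in CL and -0.23 to -0.17 in IL, and Bax has 1576 exon bases. In a fit of all 14 libraries (0.68, adjusted p = 0.186) or with the mouse as a random effect (0.70, adjusted p = 0.0834) Bax was not called in the cKO, although its fold change was no smaller. With that length measure as a covariate in the fit of all 14 libraries it was 0.42 (adjusted p = 0.283).

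Bak1 (chr17:27019810-27029009, minus strand), the effector resident on mitochondria, was scarcely expressed. Its values were 0.601, 1.28, 0.459 and 0.871 CPM in Ctrl CL and 0.926, 1.05, 1.47 and 1.17 CPM in Ctrl IL. In the cKO they were 0.343, 0.655 and 0.736 CPM in CL and 1.05, 1.12 and 1.36 CPM in IL. All IL libraries of the cKO lay above all of its CL libraries, and the Ctrl hemispheres overlapped. The log2 fold change, which the added 1 CPM makes smaller at this level, was 0.50 (SE 0.15, adjusted p = 0.0439) in cKO and 0.30 (SE 0.18, adjusted p = 0.377) in Ctrl. The cKO call was lost with the mouse as a block (0.43, adjusted p = 0.191) and in 5 of 6 fits without a library, in which the fold change ranged from 0.40 to 0.57. Exons of Ggnbp1 lie on the opposite strand of Bak1, and the library kit does not mark strand.

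Bid (chr6:120891930-120916853, minus strand) encodes the BH3-only protein that caspase-8 cleaves, linking death receptors to mitochondria. It was the family gene called lower in IL. In Ctrl it was 96.9, 105, 113 and 90.6 CPM in CL and 72.0, 59.6, 73.8 and 68.1 CPM in IL. In the cKO it was 96.7, 81.7 and 121 CPM in CL and 63.9, 52.7 and 61.9 CPM in IL. Every IL library lay below every CL library within each genotype, and all 6 mice had less in IL, by differences of -0.91 to -0.20 on the log2 scale. The log2 fold change was -0.65 (SE 0.15, adjusted p = 0.0167) in cKO and -0.48 (SE 0.16, adjusted p = 0.104) in Ctrl. With the mouse as a block Bid was called in both, at -0.71 (adjusted p = 0.0198) and -0.48 (adjusted p = 0.0196). In the cKO the call was lost without the IL library of mouse 791 or of mouse 3592, where the highest adjusted p was 0.067. Transcripts of Bid and of Bcl2l13, on the opposite strand, overlap over 629 identical bases, and Bcl2l13 (22.5 to 37.1 CPM) was higher in IL in 6 of 6 mice, the direction opposite to Bid. The part of reads from the shared bases in either value was not tested.

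Pmaip1 (chr18:66458533-66465565) encodes Noxa, a BH3-only protein that antagonises Mcl1 and Bcl2a1. It was 19.6, 37.0, 38.1 and 30.1 CPM in Ctrl CL and 23.0, 20.6, 37.1 and 39.0 CPM in Ctrl IL. In the cKO it was 13.9, 21.5 and 19.9 CPM in CL and 28.2, 25.3 and 31.3 CPM in IL. The cKO CL libraries were the low group, overlapping Ctrl CL through mouse 3541 only, and the cKO IL libraries lay inside the Ctrl IL range. Between hemispheres the log2 fold change was 0.68 (SE 0.15, adjusted p = 0.0173) in cKO and 0.01 (SE 0.23, adjusted p = 0.989) in Ctrl. The cKO call was lost with the mouse as a block (0.50, adjusted p = 0.0811), in a fit of all 14 libraries and without any single cKO IL library. Between genotypes Pmaip1 had the largest negative value of the family in limma, -0.73 (SE 0.24, interval -1.25 to -0.21, unadjusted p = 0.0107, adjusted p = 0.283) in CL and -0.02 (SE 0.18, adjusted p = 0.993) in IL. The genotype by hemisphere interaction, which tests that difference directly, was 0.69 (SE 0.31, unadjusted p = 0.0425, adjusted p = 0.9999). It was not called, as were 0% of all 18476 genes, of which 465 had an unadjusted p under 0.05 in limma. The other 9 genes had interaction values from -0.22 to 0.33, all with unadjusted p of 0.361 or more.

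Bcl2l11 (chr2:128126038-128162547), which encodes the BH3-only protein Bim, was 28.4, 28.7, 48.4 and 39.9 CPM in Ctrl CL and 32.0, 42.7, 63.0 and 44.4 CPM in Ctrl IL. The cKO had 50.5, 44.1 and 53.5 CPM in CL and 48.0, 55.3 and 53.5 CPM in IL. As for Bcl2, Ctrl mice 3541 and 3545 had the lowest CL values, and 2 of the 3 cKO CL libraries lay above the highest Ctrl CL library, while the cKO IL libraries lay inside the Ctrl IL range. Bcl2l11 is also a long gene, with 8029 exon bases. Over the 14 libraries, which share group and mouse, Pearson's r between the log2 values of Bcl2 and Bcl2l11 was 0.70. Each of the 6 mice had more Bcl2l11 in IL, by 0.04 to 0.63 on the log2 scale. The log2 fold change between hemispheres was 0.39 (SE 0.18, adjusted p = 0.239) in Ctrl, called with the mouse as a block (SE 0.10, adjusted p = 0.0346), and 0.15 (SE 0.11, adjusted p = 0.377) in cKO. Between genotypes it was 0.44 (SE 0.17, unadjusted p = 0.0288, adjusted p = 0.415) in CL and 0.24 (SE 0.16, adjusted p = 0.765) in IL.

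Bbc3 (chr7:16308393-16318205), which encodes Puma, a p53-induced BH3-only protein, was low. It was 7.09, 8.58, 16.1 and 15.4 CPM in Ctrl CL and 6.57, 5.80, 11.1 and 10.3 CPM in Ctrl IL, so Ctrl mice 3541 and 3545 were low in both hemispheres here too. The cKO had 7.14, 12.0 and 13.1 CPM in CL and 8.37, 6.19 and 8.97 CPM in IL. In all 6 mice Bbc3 was lower in IL, with differences from -0.67 to -0.01 on the log2 scale, and the groups overlapped. Its log2 fold change was -0.33 (SE 0.24, adjusted p = 0.497) in Ctrl and -0.32 (SE 0.22, adjusted p = 0.331) in cKO, and -0.61 (adjusted p = 0.0998) in cKO with the block. Between genotypes it was -0.06 in IL and -0.11 in CL, with adjusted p of 0.974 and 0.909.

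**Figure D4:**
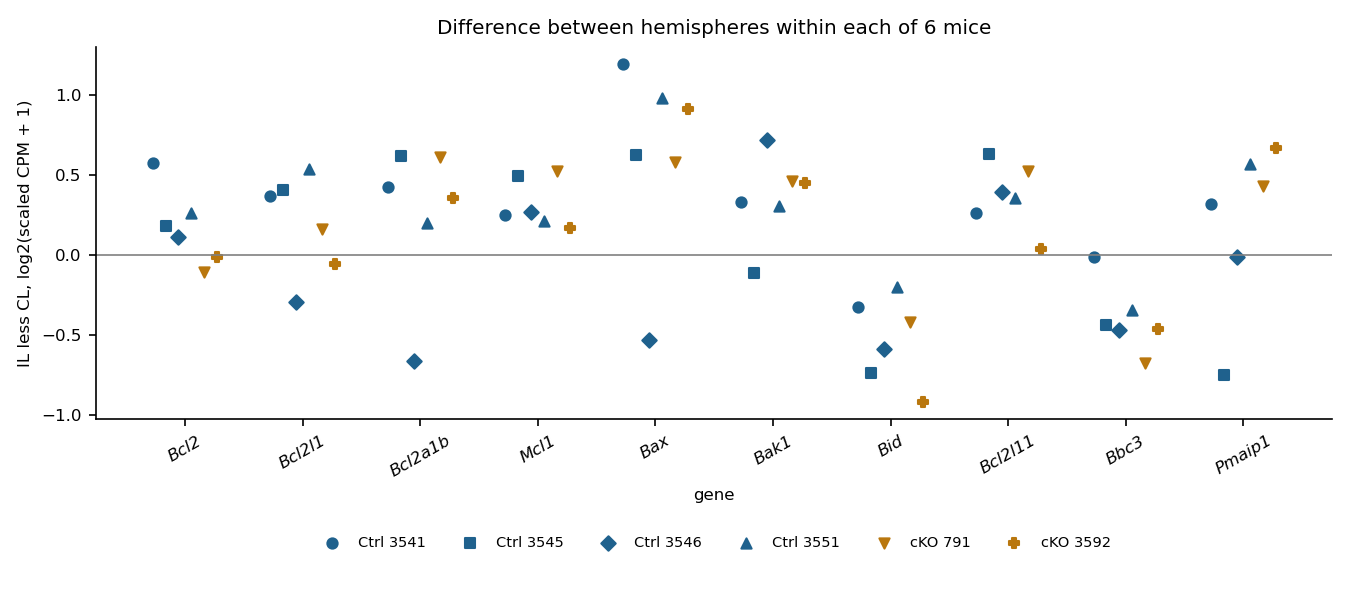
IL less CL difference of each gene within each of the 6 mice with both hemispheres, in log2(CPM + 1) after scaling; blue symbols are Ctrl and brown symbols cKO mice. Mcl1 and Bcl2l11 lie above 0 and Bid and Bbc3 below 0 in all 6 mice, and Ctrl mouse 3546 is the mouse with less Bax and Bcl2a1b in IL.

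Promoters of the family were searched for motifs of factors known to control it, in the RefSeq windows from 250 bases before to 50 after each start (GRCm38.p6), which matched 9 of the 10 genes, all but Pmaip1, with 14 windows. A p53 half-site (the consensus decamer, either strand) was found in 1 of the 14 windows, that of Bax, against 8.36% of 32851 windows of the same length. The FOXO motif TGTTTAC, either strand, was found in 2 of the 14, a window of Bcl2l11 and a window of Bbc3, against 3.65% of all windows. An NF-kB consensus decamer matched in 2 of the 14, a window of Bcl2l1 and, with 2 overlapping matches, a window of Bbc3, against 8.46% of all windows, and counts this small are given as descriptions. The window of Bid held none of these. The 250 bases before the start are shown for Bax, called between the cKO hemispheres, at chr7:45466899-45467148 (minus strand), and for Bcl2l11, called in Ctrl with the block, at chr2:128125788-128126037 (plus strand). Capitals mark the p53 half-site in Bax and the FOXO motif in Bcl2l11, and a match is a description of these letters only.
Bax: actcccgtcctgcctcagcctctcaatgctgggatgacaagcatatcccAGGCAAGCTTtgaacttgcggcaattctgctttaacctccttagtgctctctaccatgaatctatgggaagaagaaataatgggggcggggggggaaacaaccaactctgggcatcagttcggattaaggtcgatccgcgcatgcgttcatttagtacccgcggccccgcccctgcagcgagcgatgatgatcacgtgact
Bcl2l11: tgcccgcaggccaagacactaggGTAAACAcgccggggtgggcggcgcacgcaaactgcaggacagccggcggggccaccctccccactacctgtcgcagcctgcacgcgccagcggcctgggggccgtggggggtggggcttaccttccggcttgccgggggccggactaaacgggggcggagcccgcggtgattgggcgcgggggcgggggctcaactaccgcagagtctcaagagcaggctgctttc

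Of 16 further members of the family, 12 were tested, and Bcl2a1c, Bcl2l10, Hrk and Bcl2l15 were too low in every comparison, at most 0.573 CPM in any library. None of the 12 was called between genotypes. Bok, an effector-like relative of Bax and Bak1, was the one called, between the cKO hemispheres, where 22.7% of all genes were. It was 0.581, 1.16 and 0.542 CPM in cKO CL and 1.29, 2.93 and 1.97 CPM in cKO IL, with a log2 fold change of 0.82 (SE 0.24, adjusted p = 0.0428). These groups did not overlap, as for 42.4% of all genes there. In Ctrl it was 0.388 to 1.058 CPM in CL and 1.064 to 1.56 CPM in IL. Those did not overlap either, as for 17.7% of all genes, and Bok was higher in IL in 6 of 6 mice. The median over the 12 was 0.16 in both genotypes between hemispheres. With the mouse as a block, Bcl2l14 and Bnip3 were called higher in IL in Ctrl, and Bok and Bnip3 higher and Bmf lower in the cKO, of which Bcl2l14, Bnip3 and Bmf were named after their values were seen. These 2 and 3 of 12 stand beside 20.2% and 14.2% of all genes.

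Downstream of the family, the caspase and apoptosome list of 20 genes held no call between genotypes and none between the Ctrl hemispheres. Between the cKO hemispheres 4 genes were called higher and 3 lower in IL, where 22.7% of all genes were called, with a median of 0.10 over the list beside 0.01 for all genes. The higher genes were Cycs (cytochrome c, log2 fold change 0.68, SE 0.09, adjusted p = 0.00315), Apaf1 (the apoptosome scaffold, 0.47), Aifm1 (a mitochondrial flavoprotein that can act in cell death, 0.34) and Birc5 (survivin, an inhibitor of apoptosis also known from mitosis, 0.91). Cycs was 28.9, 31.4 and 28.6 CPM in cKO CL and 44.7, 45.7 and 47.6 CPM in cKO IL. In Ctrl it was 42.8, 41.6, 27.9 and 34.4 CPM in CL and 44.2, 48.4, 21.0 and 43.0 CPM in IL. The Ctrl hemispheres overlapped, with mouse 3546 at the low end of both. The lower genes were Casp2 (an initiator-type caspase, -0.77, adjusted p = 0.00434), Dffb (the nuclease that cuts DNA in apoptosis, -0.64) and Birc2 (cIAP1, a ubiquitin ligase, -0.49). Casp2 was 29.3 to 35.0 CPM in cKO CL against 16.9 to 17.8 CPM in cKO IL, and 30.5 to 40.3 CPM in Ctrl CL against 18.7 to 23.8 CPM in Ctrl IL, without overlap in either. The block left 3 of the 20 called in the cKO, Cycs, Birc5 and Casp2, a share near the 14.2% of all genes. With the block Apaf1 and Birc5 were also called higher in Ctrl, and Birc2 and Casp2 lower.

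In the death receptor list of 14 genes, none was called between genotypes, and the median between hemispheres was 0.14 in Ctrl and 0.18 in cKO. Traf1, an adaptor of TNF receptors, and Ripk3, the kinase of necroptosis, were called higher in IL in both genotypes. They were the 2 calls among the 14 genes in Ctrl, where 6.69% of all genes were called, and 2 of 5 calls in the cKO, where 22.7% were. Traf1 was 4.51 ± 1.40 CPM in Ctrl CL and 14.6 ± 2.76 in Ctrl IL (n = 4 each), and 6.31 ± 2.49 in cKO CL and 19.5 ± 1.88 in cKO IL (n = 3 each). Its log2 fold change was 1.59 (SE 0.20, adjusted p = 0.00179) in Ctrl and 1.61 (SE 0.26, adjusted p = 0.00528) in cKO. For Ripk3 it was 1.05 (SE 0.26, adjusted p = 0.039) in Ctrl and 0.93 (SE 0.19, adjusted p = 0.0118) in cKO, with a mean of 16.9 and 18.9 CPM in CL and 33.6 and 34.9 CPM in IL. Mlkl, which Ripk3 phosphorylates to break the plasma membrane, was called in the cKO (1.08, adjusted p = 0.0109) and had 0.78 (adjusted p = 0.0924) in Ctrl. Fas, a death receptor (0.99, adjusted p = 0.0112), and Tradd, an adaptor of TNF receptor 1 (0.56, adjusted p = 0.0128), were the other calls in the cKO. Fas had -0.09 (adjusted p = 0.945) in Ctrl, and no gene was called in the interaction. With the block, Mlkl, Ripk3, Traf1 and Fas were called higher in the cKO, and in Ctrl Mlkl, Ripk3 and Traf1 higher and Traf2 lower, Traf2 being named after its values were seen. These 4 of 14 in each genotype stand beside 14.2% of all genes in the cKO and 20.2% in Ctrl.

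Of 12 regulators of the family none was called between genotypes. Hif1a, the oxygen-sensing transcription factor, and Trib3, a pseudokinase induced by cell stress, were called higher in IL in both genotypes, the 2 calls of 12 in Ctrl (6.69% of all genes) and 2 of 4 in the cKO (22.7%). Hif1a was 238 ± 18.1 CPM in Ctrl CL, 440 ± 42.8 in Ctrl IL, 306 ± 75.9 in cKO CL and 558 ± 80.3 in cKO IL, with log2 fold changes of 0.96 (adjusted p = 0.0129) and 0.95 (adjusted p = 0.0131). Trib3 changed by 1.17 (adjusted p = 0.0216) in Ctrl and 1.56 (adjusted p = 0.00536) in cKO, from about 1 CPM in CL, with means of 1.14 and 0.942, to 3.72 and 4.59 CPM in IL. Ddit3, which encodes the stress factor CHOP, and Nfkb1, an NF-kB subunit, were called lower in the cKO, at -0.77 (adjusted p = 0.0165) and -0.66 (adjusted p = 0.012). In Ctrl they had -1.14 (adjusted p = 0.1) and -0.54 (adjusted p = 0.0826), and both were called there with the block, as were Usp9x (higher) and Trp53 (lower), named after their values were seen. The block thus called 6 of 12 in Ctrl, where it called 20.2% of all genes, and the same 4 genes as without it in the cKO, where it called 14.2%. The list median was 0.17 in Ctrl and -0.05 in cKO.

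**Figure D5:**
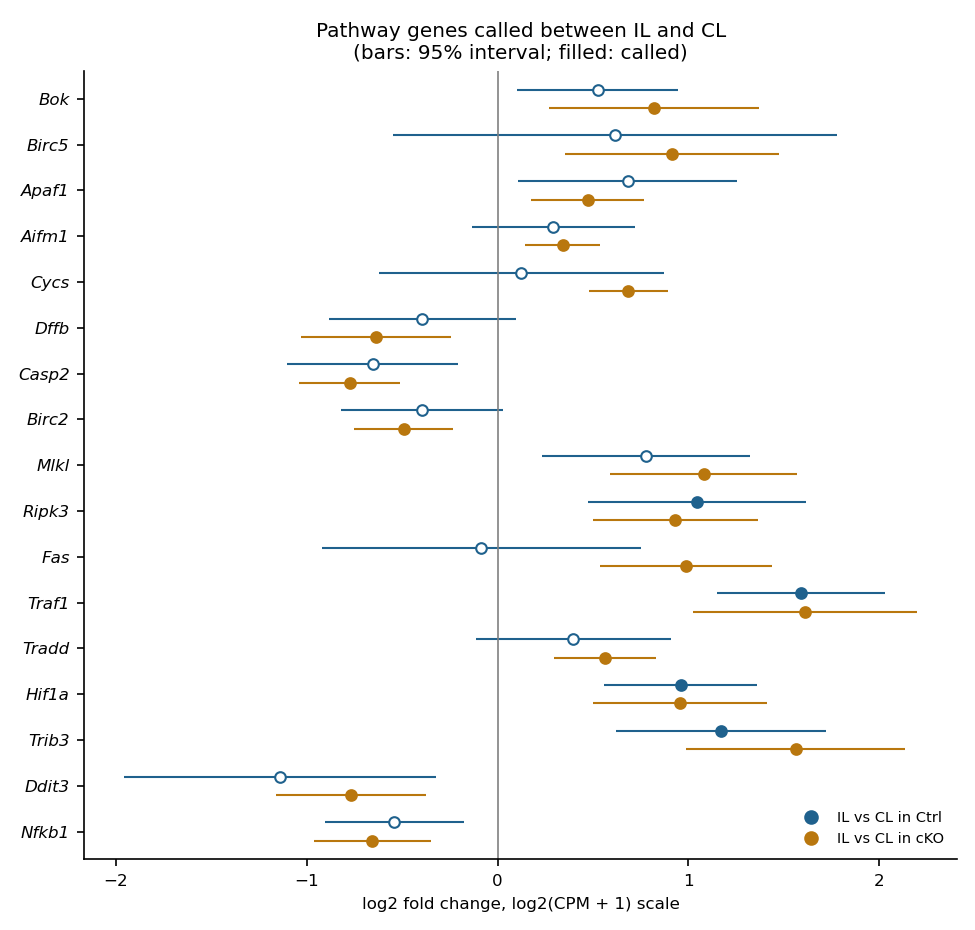
Log2 fold changes between IL and CL, on the log2(CPM + 1) scale, of the 17 pathway genes called in at least 1 genotype; bars are 95% intervals, and filled points were called. Ripk3, Traf1, Hif1a and Trib3 are filled in both genotypes, and Fas has -0.09 in Ctrl and 0.99 in cKO.

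The genes whose log2 values over the 14 libraries were most like those of each member differed from member to member. For Bcl2 they were Myo7a (Pearson's r = 0.92) and Srcap (0.91), for Bcl2l1 Rcor1 (0.89) and Rest (0.87), for Bcl2a1b Mrpl17 (0.97) and Mif (0.96), and for Mcl1 Sdc1 (0.90) and Cxcl2 (0.90). For the effectors they were Swi5 (0.91) and BC029722 (0.91) with Bax, and Zfand2a (0.96) and Mtpn (0.93) with Bak1. For the BH3-only genes they were Ankrd10 (0.96) and Zfp688 (0.95) with Bid, Nacc1 (0.92) and Sidt2 (0.89) with Bcl2l11, Fzd7 (0.91) and Dnajb2 (0.90) with Bbc3, and Spop (0.90) and Fkbp5 (0.90) with Pmaip1. Among the family itself the highest r was 0.71, between Bax and Bcl2a1b, and the lowest was -0.71, between Bid and Mcl1. These are descriptions over libraries that share group, mouse and gene length measure.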

How the data were processed

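CD11b+ cells were profiled by Smart Seq v4 in 14 libraries. The authors mapped reads with STAR to mm10 and used Partek Flow 8.0; how reads were counted is not given in the sources used here. The deposited values, named raw counts, are CPM, as each library sums to 1000000. Of values under 100 reads, 79.0% to 83.5% were whole multiples of 1 read (tolerance 0.03), too few for a count test. Deposited tables of the authors' own comparisons (means, fold changes, p-values) were not used. The gene deleted is not reported here.

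Libraries were scaled by an unweighted trimmed mean of M-values (30% of M-values and 5% of A-values trimmed). log2(CPM + 1) was fitted with limma 3.58.1 (R 4.3.3), with a trend, on the groups compared. The filter asked for the CPM that equals 10 reads at median depth, in a number of libraries equal to the size of the smaller group. The fit was tested on simulated data. Alternatives were a pseudocount of 0.5, deposited values, median-ratio scaling, no filter, all 14 libraries, the mouse as a random effect or block, leaving out each library and, chosen after seeing the data, the length measure as a covariate over all 14 libraries. Hemispheres with the same number come from the same animal, and their deviations correlated at 0.18 to 0.61 across genes in 6 of 6 mice, against -0.53 to 0.50 (median -0.22) in 19 pairs of different numbers. Mice 784 and 788 were taken as different animals. Named were all members, pathway genes called, the Bcl2a1 copies and the 2 most alike genes per member. Members and lists were chosen with earlier results of these data known.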

Additional observations from a re-analysis of the deposited data

Results flagged for a closer look

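Bcl2l1 in the CL library of Ctrl mouse 3546 was 185 CPM, far above the 109 to 119 CPM of the other 3 Ctrl CL libraries. Its gap to the nearest library exceeded the limit for a group of 4. Of 22 groups of 4 libraries examined, 1 had such a library, and chance gives about 1 in 20. The same library had a long less short difference of 0.53, the highest of the CL libraries, and the part of this in the Bcl2l1 value was not tested.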

How the results depend on the processing

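No alternative called any of the 10 genes between genotypes or in the interaction. Between the Ctrl hemispheres, where none was called, the values as deposited called 1 (Bid), all 14 libraries fitted with the length measure 2 (Bcl2l11 and Bid; 0 without the measure), the mouse as a block 2 (the same genes) and the mouse as a random effect 3 (Bcl2l11, Bid and Mcl1), and leaving out a library gave 0 to 1 (Bax, without the IL library from mouse 3546). Between the cKO hemispheres, where 4 were called, a single fit of all 14 libraries called 1 (Bid), the same fit with the length measure 2 (Bid and Pmaip1) and the mouse as a block 2 (Bax and Bid). The values as deposited and no filter on low values each called 3, without Bak1, and the random effect called 4, with Mcl1 in place of Bax. Leaving out a library there gave 1 to 4, with 1 without the IL library of mouse 791 (Bax), 2 without that of 784 (Bax and Bid) and 2 without that of 3592 (Bax and Bcl2a1b). The cause of these shifts was not tested.

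The differences that changed sign were not called, and reached 0.33 in size (Bcl2a1b in the interaction). Between genotypes in IL, Bak1 had -0.0015 with the random effect and Pmaip1 0.013 with the length measure. Leaving out libraries there gave -0.10 to 0.076 for Bcl2l1, -0.049 to 0.053 for Mcl1, -0.15 to 0.34 for Bax, -0.0041 to 0.063 for Bak1, -0.15 to 0.054 for Bbc3 and -0.12 to 0.099 for Pmaip1. In CL it gave -0.064 to 0.095 for Bax, -0.20 to 0.083 for Bid and -0.26 to 0.12 for Bbc3. Between Ctrl hemispheres Pmaip1 had -0.066 as deposited and -0.15 to 0.15 without a library, and Bcl2a1b -0.08 to 0.51. Between cKO hemispheres Bcl2 had -0.049 as deposited, -0.11 with the block and -0.093 to 0.20 without a library, and Bcl2l1 -0.061 as deposited and -0.069 to 0.11. In the interaction, Bcl2a1b had -0.022 with the length measure and -0.08 to 0.51 without a library, Mcl1 -0.014 with median-ratio scaling and -0.040 to 0.11, Bax -0.11 with the length measure and -0.24 to 0.29, and Bbc3 -0.027 with median-ratio scaling, -0.064 with the random effect and -0.19 to 0.18.

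Of 780 values under alternatives, 696 kept direction and side of the threshold. Low genes such as Bak1, near 1 CPM, are limited by depth and by the pseudocount. Replicates are separate mice, and 3 to 4 libraries a group leave wide intervals.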
